A study of Mus musculus with 6 samples.

Results

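The BCL2 family sets whether a stressed cell lives or dies at the mitochondrion, and the chromatin of 10 of its genes was examined here in haematopoietic stem cells (HSCs). Survival members were Bcl2, Bcl2l1 (BCL-XL) and Mcl1. Death-promoting members were the effectors Bax and Bak1 and the BH3-only genes Bcl2l11 (BIM), Bbc3 (PUMA), Pmaip1 (NOXA), Bid and Bad. A region of open chromatin was taken as a member region if it lay inside the gene or within 50 kb of its span. By this rule 161 of 82993 regions belonged to the family, 60 at survival and 101 at death-promoting genes. The rule uses gene positions and no measured value, and the list of genes was drawn up with earlier results of these data known.

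The study assayed open chromatin by ATAC-seq, in which a transposase cuts accessible DNA, in bone marrow HSCs sorted as CD48-CD150+LSK, about 5000 cells per library. The groups were 3 tunicamycin libraries and 3 DMSO libraries, all of wild-type C57BL/6J mice injected intraperitoneally. Tunicamycin, given at 2 mg/kg, blocks N-linked glycosylation and so loads the endoplasmic reticulum (ER) with misfolded protein, and DMSO is its solvent. The sources used here do not give age, the time after injection or whether each library came from its own animal or from pooled animals, so the spread between libraries may be partly technical. The data are lists of peaks, 1 list per library. The tunicamycin libraries held 44952, 56865 and 47789 peaks and the DMSO libraries held 62478, 38217 and 28501 peaks. The DMSO libraries thus included both the longest and the shortest list. Read depth is unknown, so a region that is not called in a short list is not shown to be closed. A sorted library is a pool, so more open chromatin per cell cannot be told apart from a larger share of cells with that site open.

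Survival proteins of the family hold the effectors BAX and BAK in check at the outer mitochondrial membrane. BH3-only proteins are the sensors of stress: they bind the survival proteins or the effectors, and freed effectors then open the membrane and release cytochrome c. Prolonged ER stress is known to reach this switch through the transcription factor CHOP, which raises BIM and lowers BCL2, and through p53, which raises PUMA and NOXA. FOXO factors also drive Bcl2l11 and Bbc3, and HSCs are known to depend on Mcl1.

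Promoter sequence of 4 members is printed: Bbc3 and Bcl2l1 had the weakest and the strongest promoter region of the family, Bak1 the one whose ranks did not overlap between the groups, and Bcl2 is the founding survival gene. RefSeq (GRCm38.p6, the assembly of mm10) supplied 15 promoter windows for 9 of the 10 members, all but Pmaip1. Each sequence is the 250 bases before an annotated start, written 5′ to 3′ on the gene's strand. Capitals mark the GC box GGGCGG, the Sp1 recognition motif, on either strand. Bbc3 is chr7:16309333-16309582 on the plus strand, Bcl2 is chr1:106714291-106714540 on the minus strand, Bak1 is chr17:27028628-27028877 on the minus strand and Bcl2l1 is chr2:152830718-152830967 on the minus strand.
Bbc3: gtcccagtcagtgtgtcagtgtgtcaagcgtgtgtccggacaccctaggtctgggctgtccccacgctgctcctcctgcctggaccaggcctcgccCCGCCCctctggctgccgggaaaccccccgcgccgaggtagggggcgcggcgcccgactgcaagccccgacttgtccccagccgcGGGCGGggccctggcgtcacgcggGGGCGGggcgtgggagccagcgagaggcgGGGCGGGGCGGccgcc
Bcl2: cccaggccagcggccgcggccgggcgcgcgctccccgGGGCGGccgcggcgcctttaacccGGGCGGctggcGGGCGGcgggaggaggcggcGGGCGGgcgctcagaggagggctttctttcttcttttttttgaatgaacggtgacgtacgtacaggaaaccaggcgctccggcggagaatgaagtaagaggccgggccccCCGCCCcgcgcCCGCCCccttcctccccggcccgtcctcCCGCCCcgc
Bak1: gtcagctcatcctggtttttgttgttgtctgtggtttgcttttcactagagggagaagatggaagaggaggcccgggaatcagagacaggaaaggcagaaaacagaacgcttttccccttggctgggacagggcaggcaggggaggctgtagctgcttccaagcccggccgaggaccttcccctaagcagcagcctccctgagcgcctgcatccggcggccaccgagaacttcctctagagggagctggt
Bcl2l1: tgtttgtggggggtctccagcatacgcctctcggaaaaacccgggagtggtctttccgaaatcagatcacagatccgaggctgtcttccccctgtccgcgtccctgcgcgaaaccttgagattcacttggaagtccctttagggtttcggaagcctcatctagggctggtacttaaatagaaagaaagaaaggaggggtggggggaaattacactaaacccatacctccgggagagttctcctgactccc
The Bbc3 window held 5 GC boxes and 76.4% G and C, and the Bcl2 window held 7 GC boxes and 74.8% G and C. The Bak1 and Bcl2l1 windows held none, with 58.4% and 53.2% G and C, beside a median of 55.6% over all coding-gene promoters. A GC box stood in 10 of the 15 member windows, from 7 genes, and in 42.6% of 21237 coding-gene promoters of this length.

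A second pair of windows is printed for the FOXO core TGTTTAC, which was found at the 2 BH3-only genes that FOXO factors are known to drive. Here capitals mark that core on either strand. Bcl2l11 is chr2:128125788-128126037 on the plus strand and Bbc3 is the window of its second start, chr7:16310011-16310260 on the plus strand.
Bcl2l11: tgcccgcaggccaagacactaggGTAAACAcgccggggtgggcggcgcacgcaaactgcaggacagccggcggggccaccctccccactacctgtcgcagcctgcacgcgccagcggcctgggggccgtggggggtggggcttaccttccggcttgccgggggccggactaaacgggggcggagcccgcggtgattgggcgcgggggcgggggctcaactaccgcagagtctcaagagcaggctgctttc
Bbc3: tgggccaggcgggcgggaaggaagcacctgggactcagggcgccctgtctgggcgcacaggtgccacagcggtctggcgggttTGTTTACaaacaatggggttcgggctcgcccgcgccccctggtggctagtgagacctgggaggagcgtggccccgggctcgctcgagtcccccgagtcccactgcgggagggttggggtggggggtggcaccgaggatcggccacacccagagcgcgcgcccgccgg
Counted from the start, the core lay at positions -227 to -221 at Bcl2l11 and -167 to -161 at Bbc3. It occurred in 2 of 15 member windows and in 2.61% of all promoters. Of the motifs searched for factors of the ER stress response, none was found in the member windows, neither the cyclic AMP response element TGACGTCA (1.93% of all promoters), the unfolded protein response element TGACGTGG (0.593%) nor the composite C/EBP-ATF element TGATGNAA (3.18%). The ETS core CCGGAAGT (3.795%) and the AP-1 site TGANTCA (6.14%) were not found either. The PU.1 site GAGGAAGT occurred in the Bak1 window and in the second Bad window (2.23% of all promoters), and the E-box CACGTG in the third Bbc3 window and the Bax window (6.63%). The CCAAT box stood in 4 member windows (35.4%). All were searched on both strands, and an E-box can share bases with TGACGTGG. These are matches of letters in these windows and say nothing about binding.

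All 10 members were open in every library. Each had at least 1 region, in the gene or within 1 kb of it, that was called in all 6 libraries, as had 54.4% of 21883 coding genes. All members with a promoter window also had an open promoter region in all 6 libraries, against 45.8% of coding genes with a window. Of the 161 regions 61 (37.9%) were called in all 6 libraries, against 25.1% of all regions and 26.7% of regions within 50 kb of any coding gene. The share was 31.7% at survival genes (19 of 60) and 41.6% at death-promoting genes (42 of 101). These sets differ in how many neighbours' promoters with a window they hold, as given below. The grid of calls shows these regions by library.

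**Figure D1:**
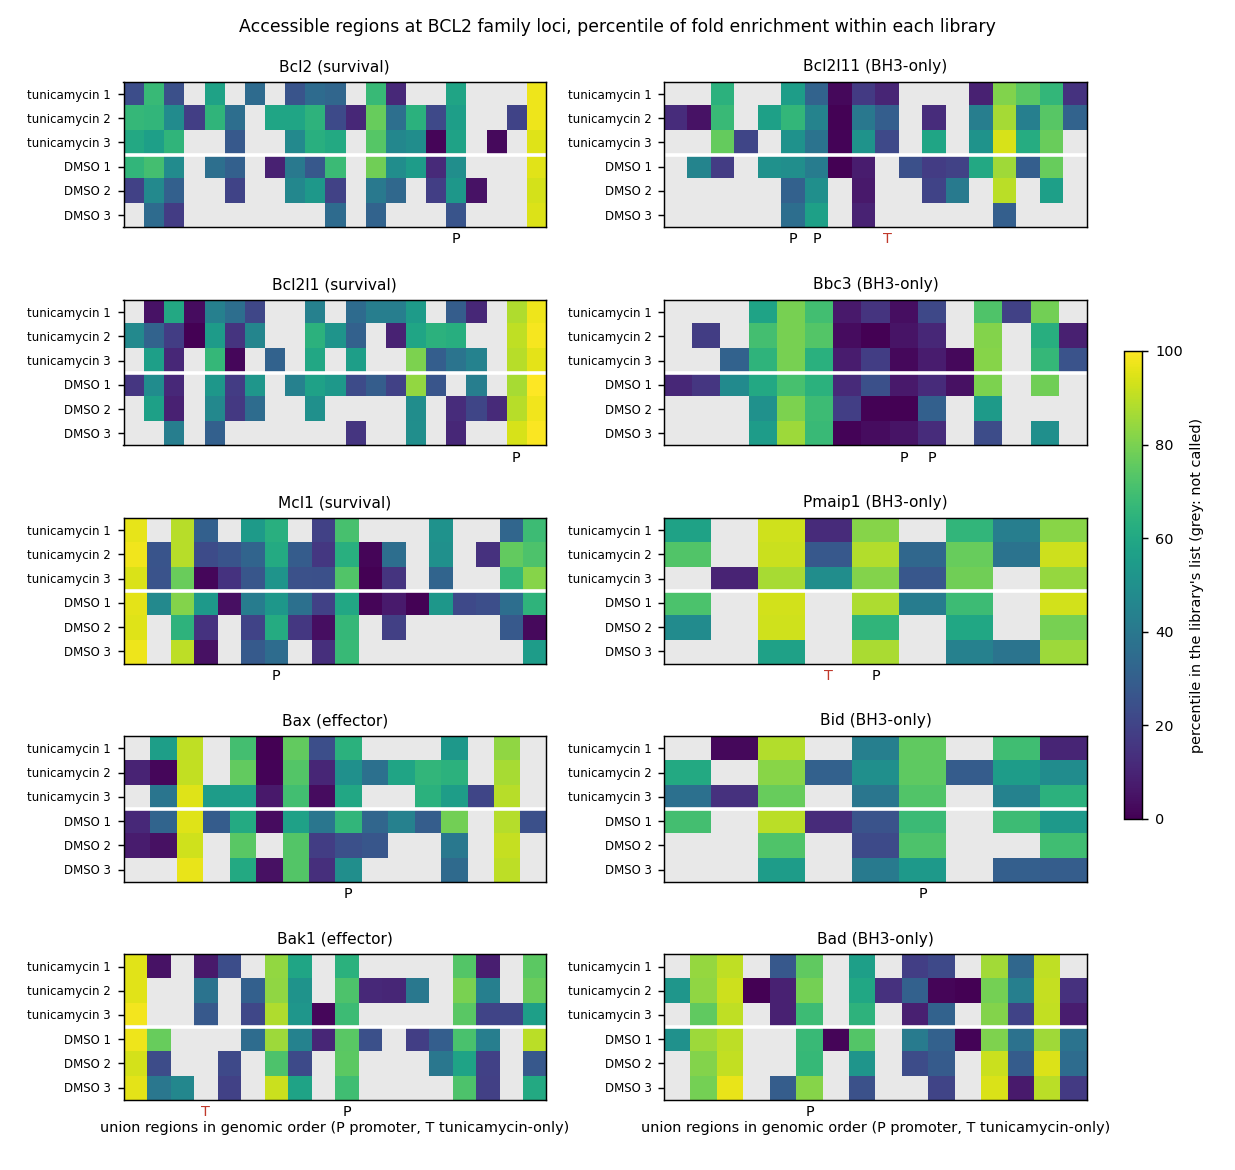
Accessible regions at the 10 BCL2 family loci, 1 column per region in genomic order and 1 row per library, tunicamycin above DMSO. Colour gives the percentile of fold enrichment within the library's list (100 is the strongest) and grey means not called, P marks the member's promoter (for Pmaip1, the region at a gene end) and T a region called in 3 tunicamycin and 0 DMSO libraries. Every P column is filled in all rows, and the 3 T columns stand at Bcl2l11, Pmaip1 and Bak1.

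The regions of a member locus are not all its own. The nearest coding gene was the member for 73 of 161 regions, 35 of 60 at survival genes and 38 of 101 at death-promoting genes. Only 11 regions overlapped a member's promoter, 20 overlapped the promoter of a neighbour, and 36 others lay inside the genes. Promoters were counted by promoter windows, which 17491 of 21883 coding genes had. A neighbour without a window was not counted, so the numbers of neighbours' promoters may be too low. Neighbours' promoters with a window numbered 1, 0 and 2 at Bcl2, Bcl2l1 and Mcl1. Bad held 8, Bax and Bak1 3 each, Bbc3 2, Bcl2l11 1, and Pmaip1 and Bid 0. Promoters of neighbours had a median percentile of 81.0 within the lists, member promoters 55.2, and sites inside the gene 30.5. In 7 of 10 loci the strongest region overlapped a neighbour's promoter window. Examples were those of Kdsr near Bcl2, Ensa near Mcl1 and Ccdc9 near Bbc3. These 7 regions had median percentiles of 79.5 to 96.1 within the lists.

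The other members were Bcl2l1, Pmaip1 and Bid, whose strongest region overlapped no promoter window. Such a region could still hold the start of a gene without a window, which was not checked. For Bcl2l1 it was chr2:152847679-152848489, 13.9 kb outside the gene and nearest to Tpx2, and the strongest of all 161 regions by median percentile. Its fold enrichment was 12.5, 13.8 and 11.8 with tunicamycin and 16.54, 12.01 and 12.92 with DMSO, with overlapping groups. For Pmaip1 it was chr18:66437366-66438164, 20.4 kb outside the gene, at percentiles 92.8, 91.9 and 87.1 with tunicamycin and 93.2, 92.9 and 57.2 with DMSO. For Bid it was a site inside the gene, chr6:120901800-120902370, at percentiles 88.6, 82.2 and 76.6 with tunicamycin and 89.5, 72.3 and 55.3 with DMSO. In both, DMSO 3 was the lowest library and DMSO 1 the highest.

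Among the survival genes Bcl2l1 had the strongest promoter of the family. Its region, chr2:152830488-152831908, had a fold enrichment over background of 9.51, 10.3 and 9.91 in the tunicamycin libraries and of 10.3, 9.38 and 9.88 in the DMSO libraries. Fold enrichment is the authors' value for a peak, so libraries were set against each other by a shared rank, the percentile by fold enrichment among the 20810 regions called in all 6 libraries. For Bcl2l1 the shared rank was 74.9 ± 0.496 with tunicamycin and 78.7 ± 13.8 with DMSO (mean ± SD, n = 3 each, as in all pairs below). The groups overlapped (two-sided exact permutation test, p = 0.70). Summits lay 281 to 302 bases downstream of the start at 152831728, which is at positions -730 to -709 from the start of the printed window and so outside its 250 bases, and the window of another annotated start, at 152828489, had no call in any library.

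The promoter of Bcl2, the founding survival gene, stood much lower in the ranking. Region chr1:106713628-106714849 had shared ranks of 26.9, 18.7 and 25.0 in the tunicamycin libraries and 13.1, 28.4 and 14.8 in the DMSO libraries. DMSO 2 was the highest of all and the groups overlapped (23.5 ± 4.29 against 18.8 ± 8.38, exact permutation p = 0.40). The Mcl1 promoter, chr3:95658360-95659056, had shared ranks of 32.4, 22.9 and 19.8 with tunicamycin and 15.1, 37.2 and 22.4 with DMSO. Its means were nearly equal, 25.0 ± 6.57 and 24.9 ± 11.2, beside this spread (exact permutation p = 1.00).

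Of the effectors, Bak1 was the one whose promoter ranks did not overlap between the groups. Region chr17:27027405-27028815 had shared ranks of 33.3, 37.5 and 38.3 in the tunicamycin libraries and 39.4, 56.2 and 58.5 in the DMSO libraries. The lowest DMSO library lay just above the highest tunicamycin library. The mean was 36.4 ± 2.71 with tunicamycin and 51.3 ± 10.4 with DMSO, a difference of -15.0 (exact permutation p = 0.10, the smallest that 3 against 3 allows, adjusted p = 1 over 20810 regions). Fold enrichment itself overlapped, at 6.42, 7.30 and 7.03 with tunicamycin and 8.35, 7.34 and 6.42 with DMSO. In DMSO 2 the summit lay 1051 bases downstream of the start, and in the other libraries within 16 bases of it. The Bax promoter, chr7:45466337-45467252, had a shared rank of 25.0 ± 10.1 with tunicamycin and 23.8 ± 13.3 with DMSO, and its groups overlapped (exact permutation p = 0.90).

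Among the BH3-only genes Bbc3, the gene of PUMA, had the weakest promoter of the family, although it was called in every library. Region chr7:16309253-16309721 had fold enrichments of 3.27, 3.37 and 3.10 with tunicamycin and 3.62, 2.64 and 3.47 with DMSO. Its shared rank was 0.486 ± 0.238 with tunicamycin and 0.998 ± 1.16 with DMSO (exact permutation p = 0.80). The region of the other Bbc3 starts, chr7:16309912-16311417, ranked at 2.28 ± 1.93 with tunicamycin and 6.68 ± 5.24 with DMSO (exact permutation p = 0.20). By fold enrichment both thus lay near the bottom in either group, with overlapping libraries.

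Bcl2l11, the gene of BIM, had 2 promoter regions with opposite order of the group means. The first, chr2:128125577-128126351, ranked at 24.1 ± 5.22 with tunicamycin and 16.0 ± 5.87 with DMSO (exact permutation p = 0.20). The second, chr2:128126969-128127750, ranked at 8.59, 10.4 and 10.7 with tunicamycin and 8.80, 25.0 and 43.6 with DMSO, and DMSO 1 lay within the tunicamycin range (exact permutation p = 0.30). Neither difference exceeded the overlap of the libraries.

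Bid, whose protein is cut by caspase-8, and Bad, whose protein is held inactive by survival kinases, had promoters of middle rank. The Bid region, chr6:120916447-120917450, ranked at 46.0 ± 4.62 with tunicamycin and 40.7 ± 10.7 with DMSO (exact permutation p = 0.50). The Bad region, chr19:6941253-6942752, which is also the promoter of Gpr137, ranked at 46.1 ± 6.73 with tunicamycin and 49.6 ± 23.2 with DMSO (exact permutation p = 0.90). At Pmaip1 the region at a gene end, chr18:66458133-66459011, ranked at 64.0 ± 5.35 with tunicamycin and 63.5 ± 20.3 with DMSO (exact permutation p = 1.00).

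Set beside the 7437 promoter regions called in all 6 libraries, the family's promoters with a window were weak by fold enrichment except that of Bcl2l1. Their percentile in this set was 61.2 for Bcl2l1 and 0.135 to 29.4 for the other regions. Pmaip1 has no window and was not placed in this set. Its region at a gene end had mean shared ranks of 64.0 with tunicamycin and 63.5 with DMSO, beside a promoter median of 66.5. By the peaks' q-value in place of fold enrichment the order held at both ends, with 82.3 for Bcl2l1 and 2.84 for the first Bbc3 region. The first Bcl2l11 region moved to 44.5 by q-value, against 9.79 by fold enrichment. The Bid region moved to 51.7, against 26.5, and the Bax region went down to 10.35, against 13.94. The region of the other Bbc3 starts moved to 13.73, against 0.766, and so lay above the Bax region by q-value. The plot of promoter ranks shows the libraries beside the median of all promoter regions.

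**Figure D2:**
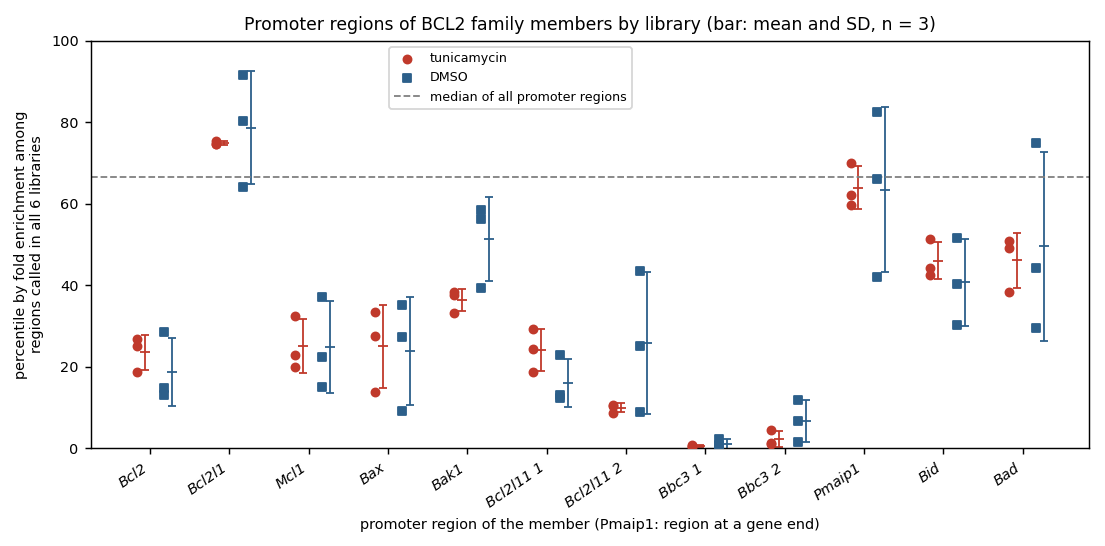
Shared rank (percentile by fold enrichment among regions called in all 6 libraries) of each member's promoter region, tunicamycin left of DMSO. A point is a library, a bar the mean and SD (n = 3), and the dashed line the median of all promoter regions, 66.5. Bcl2l1 lies above the line in every library but DMSO 1, and the Pmaip1 region lies on both sides of it. Both Bbc3 regions lie near 0, and Bak1 is the promoter whose groups do not overlap.

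The comparison of tunicamycin with DMSO asks which family loci gained or lost open sites under ER stress in the animal. In all, 3 regions, all at death-promoting genes, had a call in each of the 3 tunicamycin libraries and no call with DMSO, and they are termed tunicamycin-only. They make 1.86% of the 161 regions, and tunicamycin-only calls make 0.683% of all regions and 0.688% of those within 50 kb of a coding gene. No region at a survival gene had this pattern. The reverse, DMSO-only, was found at 0 member regions and at 0.0976% of all regions. All 3 peaks were weak to middling in their lists, and a call pattern carries no test of its own.

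The tunicamycin-only region of Bcl2l11 lay inside the gene at chr2:128156054-128156465. Its fold enrichment was 3.71, 4.43 and 4.32 in the tunicamycin libraries, which is percentiles 10.5, 30.0 and 22.1 of those lists, and no DMSO library called it. The region near Pmaip1, chr18:66447642-66448095, lay 10.5 kb from the gene and had fold enrichments of 3.82, 4.36 and 5.56 with tunicamycin, with no DMSO call. The region in the Bak1 window, chr17:27000098-27000571, lay 19.2 kb from Bak1 and nearest to another gene, Ggnbp1. It had fold enrichments of 3.54, 4.82 and 4.57 with tunicamycin, with no DMSO call.

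These calls depended on how strict the lists were. With peaks of q at most 1e-05 the Bcl2l11 region was still tunicamycin-only, and those near Pmaip1 and Bak1 were not. With all lists limited to the 28501 peaks of the shortest one, none of the 3 was. Both settings nevertheless gave tunicamycin-only regions at Bcl2l11 and at no other member, 3 of 147 regions with the strict q (0.722% of all regions) and 2 of 109 with equal lists (0.790%). In the full lists DMSO 1 had a peak in 2 of these 3 regions and in both of these 2, so they were tunicamycin-only because the limit removed that peak. The DMSO-only count was 1 in each: a region in the Bak1 window nearest to Zbtb9, and a region in the Bad window nearest to Trpt1, at 0.0414% and 0.262% of all regions. Without DMSO 1 the tunicamycin-only count was 8, of which 5 were at Bcl2l11, at a background of 5.79%, and without tunicamycin 3 it was 5, of which 2 were at Bcl2l11, at a background of 1.54%. The DMSO-only count was 1 of 159 without tunicamycin 1 (0.164% of all regions) and 2 of 160 without DMSO 3 (0.931%).

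Bcl2l11 held 1 of the 3 tunicamycin-only regions and those of the strict and equal lists. Of its 18 regions the tunicamycin libraries called 11, 15 and 12 and the DMSO libraries 14, 7 and 4 (12.7 ± 2.08 and 8.33 ± 5.13). The groups overlapped through DMSO 1, the longest list. Besides the tunicamycin-only region, 4 of the 18 (22.2%) were called in all 3 tunicamycin libraries and, of the DMSO libraries, in DMSO 1 alone. That pattern held at 4.39% of all regions and at 1 further member region, near Mcl1 at the Adamtsl4 promoter. The family as a whole had it at 5 of 161 regions (3.11%), below the share over all regions.

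Of these 4, the region at chr2:128091356-128091745, 34.3 kb outside the gene and nearest to Acoxl, had fold enrichments of 6.49, 6.84 and 7.87 with tunicamycin and 4.24 in DMSO 1. At chr2:128203160-128203443, 40.6 kb from the gene, they were 7.45, 5.06 and 6.46 with tunicamycin and 4.80 in DMSO 1. In both the single DMSO value was the lowest. The first was tunicamycin-only with the strict q and with equal lists, and the other with equal lists. The short region inside the gene at chr2:128127885-128128154, close to the second promoter, had 3.11, 2.79 and 2.90 with tunicamycin and 2.47 in DMSO 1, and was tunicamycin-only with the strict q. The last, chr2:128179712-128180412, went the other way, with 3.63, 5.03 and 5.67 with tunicamycin and 6.80 in DMSO 1.

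A further site inside Bcl2l11, chr2:128152744-128153863, was called in all 6 libraries. Its percentile in the lists was 16.8, 40.2 and 51.3 with tunicamycin and 7.71, 6.94 and 9.48 with DMSO, without overlap. By shared rank the groups did overlap, with 3.40, 8.38 and 19.1 against 0.776, 1.79 and 4.47 (exact permutation p = 0.20). This site was singled out after its values were seen. The strongest region of the locus, the Gm14009 promoter 27.2 kb away, ranked at 71.1 ± 13.7 with tunicamycin and 53.9 ± 32.1 with DMSO (exact permutation p = 0.50), and DMSO 3 was the one far below the others.

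**Figure D3:**
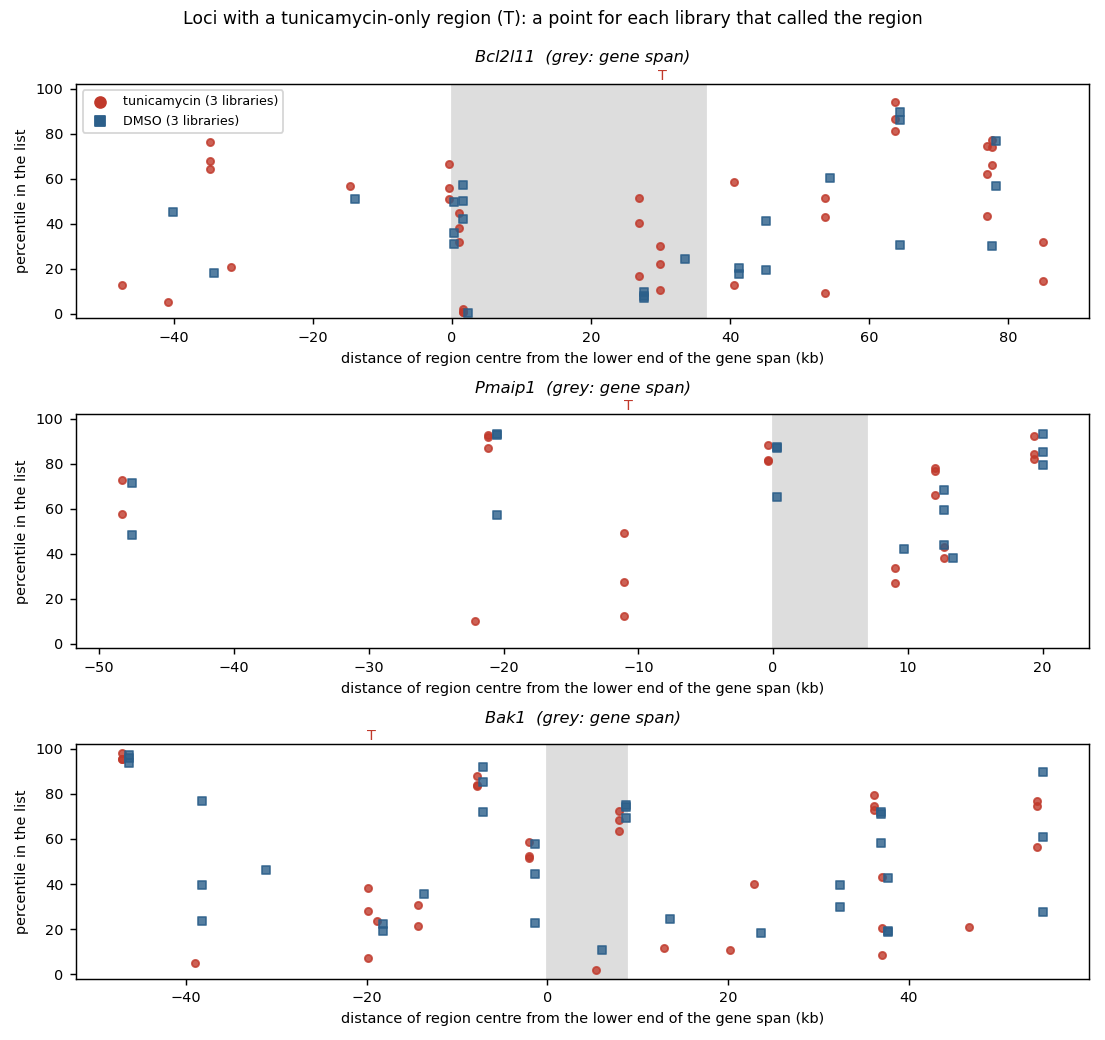
The Bcl2l11, Pmaip1 and Bak1 loci, with the distance of each region's centre from the lower end of the gene span on the x axis (kb, grey: gene) and its percentile in the list on the y axis. Each point is a library that called the region, with the groups drawn slightly apart sideways, and T marks the tunicamycin-only regions. At Bcl2l11 several positions carry red tunicamycin points with few or no blue DMSO points. Others carry blue points alone, at chr2:128159078-128159346 (DMSO 1) and chr2:128170646-128170938 (DMSO 1 and 2).

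Pmaip1, the gene of NOXA, was the member whose number of called regions did not overlap between the groups. The tunicamycin libraries called 7, 8 and 7 of its 9 regions and the DMSO libraries 6, 5 and 5. The tunicamycin-only region gives 1 call to each of the tunicamycin counts. Without that region tunicamycin 1 and 3 would equal DMSO 1, and the groups would no longer be apart. That region was not tunicamycin-only with the strict q or with equal lists. The other 9 members overlapped, and 1.18% of 18892 coding genes with a call within 50 kb had higher counts in all tunicamycin libraries. Lower counts in all tunicamycin libraries were found at 0 members and at 0.154% of these genes. At Bid the counts were 6, 8 and 7 with tunicamycin and 7, 4 and 5 with DMSO, and at Bbc3 10, 11 and 12 with tunicamycin and 13, 8 and 9 with DMSO. Among the survival genes the counts were 12, 18 and 14 with tunicamycin and 15, 13 and 6 with DMSO at Bcl2, 15, 16 and 13 with tunicamycin and 17, 12 and 7 with DMSO at Bcl2l1, and 10, 16 and 15 with tunicamycin and 18, 11 and 8 with DMSO at Mcl1. In each of these the lowest count was that of DMSO 3. At Bax, Bak1 and Bad the means of the groups differed by no more than 1 region.

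A downstream neighbour of Pmaip1 was also the single shared region that ranked above DMSO in every tunicamycin library. Region chr18:66470601-66471325, 5.04 kb from the gene, had shared ranks of 36.0, 45.2 and 53.8 with tunicamycin and 30.6, 34.6 and 29.8 with DMSO. The means were 45.0 ± 8.86 and 31.7 ± 2.58, a difference of 13.3 (exact permutation p = 0.10, adjusted p = 1). A pair of regions ranked below DMSO in every tunicamycin library, the Bak1 promoter given above and a site at Bax. The Bax site, chr7:45460846-45461293, lay 0.402 kb beyond the gene and had shared ranks of 5.54, 1.08 and 0.423 with tunicamycin and 8.04, 5.61 and 7.01 with DMSO (2.35 ± 2.79 and 6.89 ± 1.22, a difference of -4.54, exact permutation p = 0.10, adjusted p = 1).

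These counts were not above the background of such separations. Of the 61 member regions called in all libraries 1 (1.64%) was higher and 2 (3.28%) were lower with tunicamycin, and of all 20810 regions 4.66% were higher and 4.55% lower. After Benjamini-Hochberg adjustment 0 of 20810 regions passed at 0.05, and 9.21% reached the smallest exact p. Other settings moved the counts, some of them to above their own background. Ranked within the whole lists, 6 member regions were higher (7.42% of all regions) and 0 lower (1.59%), and neither the Pmaip1 region nor the Bak1 promoter was among them. Without 1 library the higher count was 4 of 62 (tunicamycin 1, background 9.04%) or 3 of 61 (tunicamycin 3, 8.51%). It was 6 of 62 without DMSO 1 (12.4%), 3 of 65 without DMSO 2 (9.01%) and 10 of 72 without DMSO 3 (10.3%). The lower count was 5 of 62, 4 of 61 and 7 of 61 without tunicamycin 1, 2 and 3 (8.71%, 8.19% and 7.99%). It was 14 of 62 without DMSO 1 (16.3%) and 1 of 72 without DMSO 3 (9.45%). With 1 library left out, the higher count without DMSO 3 and the lower counts without DMSO 1 and without tunicamycin 3 were above background. So were the higher counts within the whole lists and when ranked by q-value (4 of 61, background 5.48%). The lower counts within 10 kb (2 of 29) and by nearest gene (2 of 31) also exceeded their background of 4.55%. With libraries paired by number the lower count did so too (7 of 61, 10.8%). The median difference in shared rank was -0.512 over the member regions, 0.308 at survival genes and -1.29 at death-promoting genes, beside -0.304 over all regions.

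Survival and death-promoting loci were then set against each other within each library. The tunicamycin libraries called 61.7%, 83.3% and 70.0% of the survival regions and 62.4%, 81.2% and 71.3% of the death-promoting regions. The DMSO libraries called 83.3%, 60.0% and 35.0% of the survival regions and 80.2%, 53.5% and 50.5% of the death-promoting regions. Survival minus death was -0.710, 2.15 and -1.29 percentage points with tunicamycin and 3.14, 6.54 and -15.5 points with DMSO. DMSO 3, the shortest list, stood apart with its low share of survival regions. The mean was 0.0495 ± 1.84 points with tunicamycin and -1.94 ± 11.9 points with DMSO, a difference of 1.99 points that was smaller than the spread between libraries. The difference was -4.83 points without DMSO 3, 4.99 without DMSO 1, 6.66 without DMSO 2 and 0.996 without tunicamycin 2.

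By strength, survival regions were the weaker in 4 of 6 libraries. Their median percentile was 42.8, 49.3 and 50.6 with tunicamycin and 45.5, 32.3 and 35.1 with DMSO. At death-promoting regions it was 57.9, 49.3 and 53.9 with tunicamycin and 45.0, 50.2 and 49.3 with DMSO. Neighbours' promoters with a window had a median percentile of 81.0 and were fewer at survival loci. They numbered 1, 0 and 2 at Bcl2, Bcl2l1 and Mcl1 and 8 at Bad alone, with the other members given above. Their part in this contrast, and in that of calls, was not tested. Survival minus death was -6.10 ± 7.93 with tunicamycin and -10.5 ± 9.77 with DMSO, a difference of 4.42, beside a pooled SD of 8.90 between libraries. That difference rested on single libraries: it was 9.95 without DMSO 1, above that SD, 8.89 without tunicamycin 1, 0.694 without DMSO 2, 1.33 without tunicamycin 2 and 2.62 without DMSO 3. The bar plot of both measures shows the 6 libraries side by side.

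**Figure D4:**
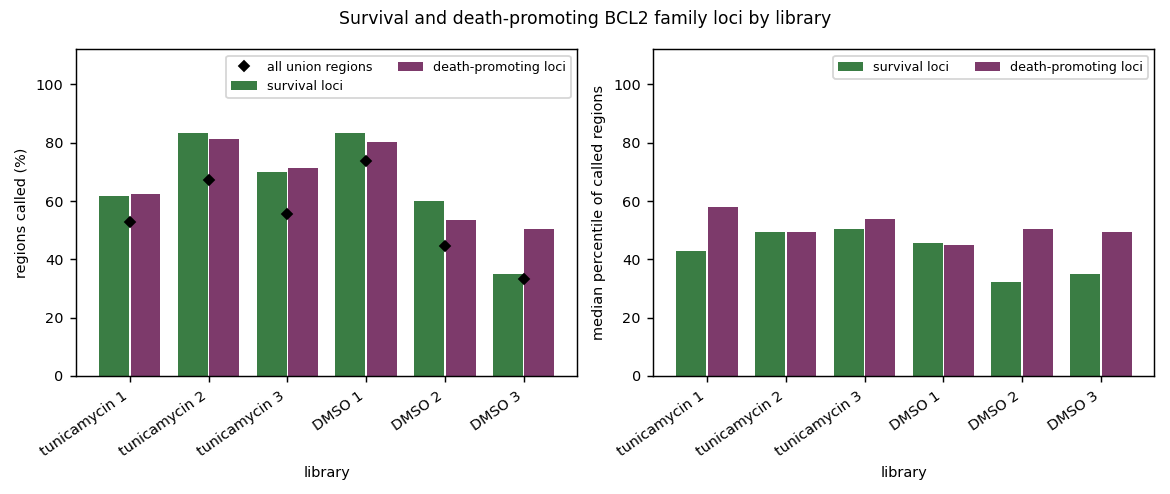
Percent of regions called (left, diamonds: all regions) and median percentile of the called regions (right) at survival and death-promoting loci, 1 pair of bars per library, tunicamycin left of DMSO. Survival and death bars are close in all tunicamycin libraries on the left, and the widest gap is in DMSO 3, at 35.0% and 50.5%.

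The rest of the pathway was summarised by regions in each gene or within 1 kb of it. Of 50 further genes 43 (86.0%) had a region called in all 6 libraries, against 54.4% of coding genes. All 19 genes that act after mitochondrial permeabilisation, among them Cycs, Apaf1 and Casp9, had one, and so had all 6 genes of the death receptor arm, such as Fas, Fadd and Casp8. Of 10 genes upstream of the BH3-only genes in stress 9 had one, with no call at Casp12, a caspase of the rodent ER. Other BCL2 family genes had one in 9 of 15 cases. Bcl2a1a and Bcl2l10 had no call, and Bcl2a1b, Bok and Bik were called in 5 libraries and Hrk in 3. Reads at the Bcl2a1 copies can be shared between near-identical genes, so their calls are uncertain.

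Tunicamycin-only regions in the gene or within 1 kb of it were found at 1 of the 50 genes, and DMSO-only regions at 0, while 1.61% and 0.192% of coding genes had one. The gene was Itpr2, which encodes a calcium channel of the ER, at chr6:146397841-146398141. Its fold enrichment was 4.44, 5.62 and 4.73 in the tunicamycin libraries, and the region remained tunicamycin-only with the strict q. It was not checked with equal lists. Counted in the same way, Bcl2l11 was the single member with a tunicamycin-only region, 1 of 10.

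Markers of the sorted cells were read as regions in the gene or within 1 kb. Of 10 HSC markers 4 (Hlf, Mecom, Procr and Kit) had a region called in all 6 libraries. Slamf1 was called in 3 libraries, Hoxb5 in 2, Tek in 1 and Ly6a in none, and Fgd5 was called in all 6 without a region common to them. Genes of other cells were open too. A region called in all 6 libraries was found at 3 of 3 genes of cells outside the gate (Cd48, Flt3 and Il7r). The same held for 3 of 3 megakaryocyte markers and 2 of 4 erythroid markers (no call at Hba-a1). It held for 1 of 5 granulocyte and monocyte markers (Csf1r, with no call at Elane, Ly6g and S100a8). Lymphoid markers had 1 of 5 (Pax5). Markers of stroma and endothelium had 1 of 3, the endothelial gene Cdh5, and not Col1a1 or Cxcl12. An open gene is not evidence that it is transcribed, so these calls neither identify nor count the cells. Pax5 also held a tunicamycin-only region. The part of other cells in the differences above was not tested.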

How the data were processed

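Per the submitters' processing notes, Trim Galore 0.4.4, Bowtie2 2.2.9, Picard, MACS2, featureCounts and build mm10 were used. The sources used here do not state their roles, settings or any read shifting. Each library has its own list of peaks. The authors deposited, beside the display score of a peak, its −log10 p-value, its −log10 q-value and its fold enrichment, which is a ratio to background, with fold enrichments of 1.68 to 31.1 and largest q-values of 0.0482 to 0.04999. Summit offsets come from the same deposited lists.

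Peaks of the autosomes, X and Y were merged at an overlap of 1 bp or more, and the 109 to 138 peaks on any other sequence were dropped. A region took its strongest peak in a library. Libraries, grouped by the labelled treatment, were compared by call patterns and, for shared ranks, by two-sided exact permutation tests over 20 splits with Benjamini-Hochberg adjustment over 20810 regions. Alternatives were stricter or equal-length lists, other distances, assignments, overlaps and rankings, pairs by number, and leaving out each library. Gene spans and promoters came from RefSeq tables for GRCm38.p6. No genome was used here, so peak sequence is not printed. The members and lists were chosen with earlier results of these data known. All 10 members are named, with their promoter regions, their strongest region and every region that separated the groups. Some genes of the other lists are counted but not reported here by name. The tools were pandas 2.3.3, NumPy 2.4.6 and SciPy 1.17.1 under Python 3.11.15, with figures from matplotlib 3.10.9.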

Additional observations from a re-analysis of the deposited data

How the results depend on the processing

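The tunicamycin-only count of 3 member regions was 1 of 70 within 10 kb of the genes, at 0.683% of all regions. It was 1 of 161 when peaks had to cover 50% of a region, at 0.833%, both times at Bcl2l11. With 1 library left out it was 3 to 8, at backgrounds of 0.821% to 5.79%. It stayed within 1.5 times under the other settings. The DMSO-only count of 0 was 1 of 147 with q at most 1e-05 (0.0414% of all regions) and 1 of 109 with equal lists (0.262%). It was 0 to 2 with 1 library left out, at backgrounds of 0.156% to 0.931%. The count of shared regions ranked higher, 1, was 2 of 51 with the strict q (4.61% of all such regions). It was 4 of 61 when ranked by q-value (5.48%) and 6 of 61 by whole-list percentile (7.42%). With 1 library left out it was 1 to 10, at backgrounds of 8.51% to 12.4%. The count ranked lower, 2, was 1 of 51 with the strict q (4.43%) and 1 of 47 with equal lists (4.43%). It was 0 of 40 with 50% cover (4.41%), 1 of 61 by q-value (5.2%) and 0 of 61 by whole-list percentile (1.59%). With 1 library left out it was 1 to 14, at backgrounds of 7.99% to 16.3%. The causes of these shifts were not tested. Survival minus death, tunicamycin minus DMSO, ran from -4.83 to 7.31 percentage points called, within the pooled SD of 8.49 between libraries. In median percentile it ran from 0.483 to 9.95 beside a pooled SD of 8.90, which was exceeded without DMSO 1 (9.95). Its sign for calls was negative without DMSO 3 (-4.83), by nearest gene (-0.702) and with 50% cover (-0.633).

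Same-numbered libraries did not deviate together, with correlations of -0.096, -0.021 and 0.025 across regions, so the numbers were not taken as pairs. With the replicate block 5 member regions were higher (11.6% of all regions) and 7 lower (10.8%), and the tunicamycin-only and DMSO-only counts were 3 and 0. With 3 libraries a group and no read counts, a p under 0.10 cannot be reached, and missing calls in short lists cannot be read as closed chromatin.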
